A study of Arabidopsis thaliana with 3 samples.

Results

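The core and linker histone genes of Arabidopsis thaliana are described here by the accessibility of their chromatin in roots. The members were given as a list of 43 loci, out of 27444 protein-coding genes of the nuclear annotation: 5 genes of H3.1, 3 of H3.3, 1 of CENH3, 8 of H4, 4 of canonical H2A, 2 of H2A.X, 3 of H2A.Z, 3 of H2A.W, 11 of H2B and 3 of H1. No measured value was used to choose them. The assay was ATAC-seq, which reads out open DNA as the places where a transposase, Tn5, could insert adapters for sequencing. The 3 libraries, numbered 1 to 3, formed 1 group: roots of Col-0 plants 14 days old, grown on vertical agar plates in long days, untreated, and carrying an INTACT transgene. In the INTACT method a protein of the nuclear envelope carries biotin, and streptavidin beads then pull nuclei out of the extract. The methods name the constitutive 35S promoter as the driver of the tag, so nuclei were pooled without choosing a cell type. The share of each root cell type among them is not given. Several independent transformants were made without a statement of which one gave these libraries. In such bulk nuclei, fewer nuclei with an open site and less opening per nucleus cannot be told apart. The study calls the 3 libraries biological repeats, but the labels do not say whether they came from separate cultures, and the spread between them may therefore be partly technical. Its supplement also gives the libraries unequal numbers of nuclei, fewest in library 1 and most in library 3, so the amount of nuclei and the library cannot be told apart.

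Histones package DNA into nucleosomes, whose core holds H2A, H2B, H3 and H4, while H1 binds the linker between cores. Replication-coupled histones (H3.1, H4 and the canonical H2A and H2B) are made mainly in S phase and are deposited behind the replication fork, H3.1 by the CAF-1 chaperone. Replacement histones are deposited outside replication as well: H3.3 at transcribed genes by HIRA and other chaperones, H2A.Z by the SWR1 remodeller, and CENH3 at centromeres. H2A.X is phosphorylated at DNA breaks and H2A.W is a plant variant of heterochromatin. In roots, S phase is concentrated in the meristem at the tip, whereas most cells of a whole root no longer divide. For the comparison asked for here, 27 genes were counted as replication-coupled, 7 as replacement (H3.3, CENH3 and H2A.Z), and 9 as neither (H2A.X, H2A.W, H1 and AT1G08170, an H2B gene that encodes a protein of 243 residues where the other H2B proteins have 126 to 151).

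Many of these genes encode the same protein. The 8 H4 genes encode 1 protein of 103 residues and the 5 H3.1 genes 1 protein of 136 residues, initiator methionine included. The 3 H3.3 genes share an isoform of the same length, which differs from H3.1 at 4 residues. Canonical H2A and H2B are less uniform, since the 4 H2A genes and the 10 H2B genes encode 4 and 10 distinct proteins.

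Short sequence elements known from plant histone promoters were searched for in the 300 bases from 250 bp upstream of the annotated transcription start site (TSS) to 50 bp downstream, on both strands, in the RefSeq sequence of TAIR10.1. The octamer CGCGGATC, an element known from plant histone promoters, was present in 10 of the 43 histone promoters (23.3%), whereas 0.146% of all 27441 protein-coding promoters examined held it. It occurred in 40 protein-coding promoters in total, so 25% of the genes with the octamer in this window were histone genes. Of the 10, 7 were replication-coupled (3 H3.1, 2 H4 and 2 canonical H2A), 1 was replacement (the H3.3 gene AT4G40040) and 2 were neither (HTA6 of H2A.W and AT1G06760 of H1). None of the H2B genes had it. The 5 promoters below carry the octamer in different families and are shown from 200 bp upstream to 1 bp upstream of the TSS, 5′ to 3′ in the direction of the gene, with the octamer or its reverse complement in capitals.
AT1G09200 (H3.1), chr1:2972335-2972534, minus strand: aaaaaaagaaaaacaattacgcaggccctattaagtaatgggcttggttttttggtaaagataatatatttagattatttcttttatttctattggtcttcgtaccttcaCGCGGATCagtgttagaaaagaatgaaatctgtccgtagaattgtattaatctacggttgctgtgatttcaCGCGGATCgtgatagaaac
AT5G65360 (H3.1), chr5:26120582-26120781, minus strand: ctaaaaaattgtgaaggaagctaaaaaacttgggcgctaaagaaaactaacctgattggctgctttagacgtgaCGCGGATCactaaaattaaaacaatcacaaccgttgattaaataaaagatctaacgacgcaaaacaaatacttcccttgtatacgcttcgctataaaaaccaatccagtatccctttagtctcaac
AT5G59690 (H4), chr5:24051274-24051473, plus strand: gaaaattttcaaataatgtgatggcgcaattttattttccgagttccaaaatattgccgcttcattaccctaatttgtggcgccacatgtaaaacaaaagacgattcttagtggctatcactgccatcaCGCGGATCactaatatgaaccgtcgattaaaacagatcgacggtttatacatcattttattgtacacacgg
HTA10 (canonical H2A), chr1:18926611-18926810, plus strand: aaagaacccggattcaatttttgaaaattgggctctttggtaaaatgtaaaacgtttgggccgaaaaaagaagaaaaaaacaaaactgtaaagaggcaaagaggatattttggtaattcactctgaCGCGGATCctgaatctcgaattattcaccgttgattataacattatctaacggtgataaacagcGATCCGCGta
AT4G40040 (H3.3), chr4:18558946-18559145, minus strand: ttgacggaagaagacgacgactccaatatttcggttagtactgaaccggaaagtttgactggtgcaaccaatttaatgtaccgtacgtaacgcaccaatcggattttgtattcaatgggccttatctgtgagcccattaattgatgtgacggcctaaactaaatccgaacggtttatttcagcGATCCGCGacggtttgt

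The octamer could be found only in the searched window, from 250 bp upstream to 50 bp downstream of the TSS. Its 12 matches lay between positions -126 and -3 from the TSS, with a median position of -72.5, and 8 of the 12 read in the direction of the gene. The base before the octamer was A in 11 of the 12 matches. AT1G09200 and HTA10 each held 2 copies. Of the 12 matches, 9 lay inside accessible sites called in all 3 libraries. The share over other positions of these promoters was not computed, so the count does not set the octamer apart from them. Of all histone genes, 72.1% had a site in the 400 bp upstream in all 3 libraries. Signal at the TSS, defined below, had a median of 2.14 times the library mean over the 10 histone genes with the octamer and 2.23 over those without it.

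The hexamer ACGTCA, which bZIP transcription factors bind in cereal histone promoters, was distributed in another way. It was present in 13 of the 43 histone promoters (30.2%) and in 9.19% of all protein-coding promoters. It was found in 9 of the 10 H2B genes counted as replication-coupled, in 2 of the 5 H3.1 genes, in 1 of the 8 H4 genes, in 1 of the 3 H3.3 genes and in none of the canonical H2A genes. All 10 matches in H2B promoters had the same orientation relative to the gene. One histone promoter, that of the H3.1 gene AT5G10400, held both elements. Of the 15 hexamer matches, 12 lay inside sites called in all 3 libraries, again without a share over other positions to set beside them. The promoters below are shown in the same way, with the hexamer in capitals, because the bases after it are alike.
AT2G37470 (H2B), chr2:15736527-15736726, plus strand: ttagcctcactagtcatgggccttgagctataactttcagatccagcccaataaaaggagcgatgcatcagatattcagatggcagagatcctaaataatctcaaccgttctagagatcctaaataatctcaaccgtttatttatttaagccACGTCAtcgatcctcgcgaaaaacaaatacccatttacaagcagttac
HTB9 (H2B), chr3:16898014-16898213, minus strand: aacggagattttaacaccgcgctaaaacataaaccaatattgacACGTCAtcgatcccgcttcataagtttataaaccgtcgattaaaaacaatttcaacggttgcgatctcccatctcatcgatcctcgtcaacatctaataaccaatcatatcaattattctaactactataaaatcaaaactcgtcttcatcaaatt
HTB11 (H2B), chr3:16914132-16914331, minus strand: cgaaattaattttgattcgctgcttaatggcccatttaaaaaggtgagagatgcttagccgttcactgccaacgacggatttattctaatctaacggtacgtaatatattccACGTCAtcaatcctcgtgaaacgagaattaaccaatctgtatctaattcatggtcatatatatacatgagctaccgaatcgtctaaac
AT5G10980 (H3.3), chr5:3473571-3473770, minus strand: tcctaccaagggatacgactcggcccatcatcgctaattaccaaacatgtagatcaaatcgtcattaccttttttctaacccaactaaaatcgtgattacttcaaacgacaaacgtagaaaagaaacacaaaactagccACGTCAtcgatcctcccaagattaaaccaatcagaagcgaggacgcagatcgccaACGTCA

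In 5 histone promoters the hexamer was the start of the same 13 bases, ACGTCATCGATCC: in 3 H2B genes (AT2G37470, AT3G53650 and HTB9), in the H3.3 gene AT5G10980 and in the H4 gene AT1G07820. This run of 13 bases was picked from these promoters, so its count is a description. It occurred in 7 of all protein-coding promoters, and the other 2 genes were AT3G50690 and AT1G07830, of which AT1G07830 starts on the opposite strand at -60 bp from AT1G07820 and shares the same copy. In HTB11 the corresponding bases differ from this run, as its line shows.

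Other elements separated the histone promoters less from the rest. CCAAT was present in 32 histone promoters (74.4%, against 51.6% of all), GGGCC in 16 (37.2%, against 18.3%), the G-box CACGTG in 6 (14.0%, against 7.68%) and the sequence TATAAA in 24 (55.8%, against 52.1%). TATAAA was found in 19 of the 27 replication-coupled promoters and in 1 of the 7 replacement promoters, that of HTA8. Binding sequences of E2F, the transcription factor family that acts at entry into S phase (TTTCCCGC, TTTCGCGC, TTTGCCGC or TTTGGCGC), were present in 3 histone promoters (6.98%, against 1.76%), those of the near-identical H4 genes AT3G45930 and AT3G46320 and of HTB2. Between different elements, 5 pairs of matches in the histone promoters shared bases. A match is not evidence of binding, and a missing match says only that these letters are not in this window.

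The signal at each gene was the mean read count of 100-bp windows with centres within 400 bp of the TSS on either side, divided by the mean over the nuclear genome of the same library, and is called fold of the library mean. Sequencing depth differed, with an estimated 9850039, 10223285 and 18130442 reads in libraries 1, 2 and 3. Between 21 and 400 reads lay behind the value of a histone gene in 1 library, so that counting error alone was at most 21.8%.

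Histone gene starts were more accessible than most. The median histone gene stood at 2.14, 2.29 and 2.01 times the library mean in libraries 1, 2 and 3, and the median protein-coding gene at 1.31, 1.44 and 1.33 times. Over the 3 libraries the median of the gene means was 2.20 for histone genes and 1.37 for all protein-coding genes. Of the 43, 33 lay above the median protein-coding gene, 25 above the 75th percentile (1.91) and 13 above the 90th percentile (2.46), and 3 lay below the 25th percentile (0.883). The means ranged from 0.320 to 3.85, a 12.1-fold span. The signal was at least 2 times the library mean in every library for 23 histone genes (53.5%), against 15.4% of all protein-coding genes.

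**Figure D1:**
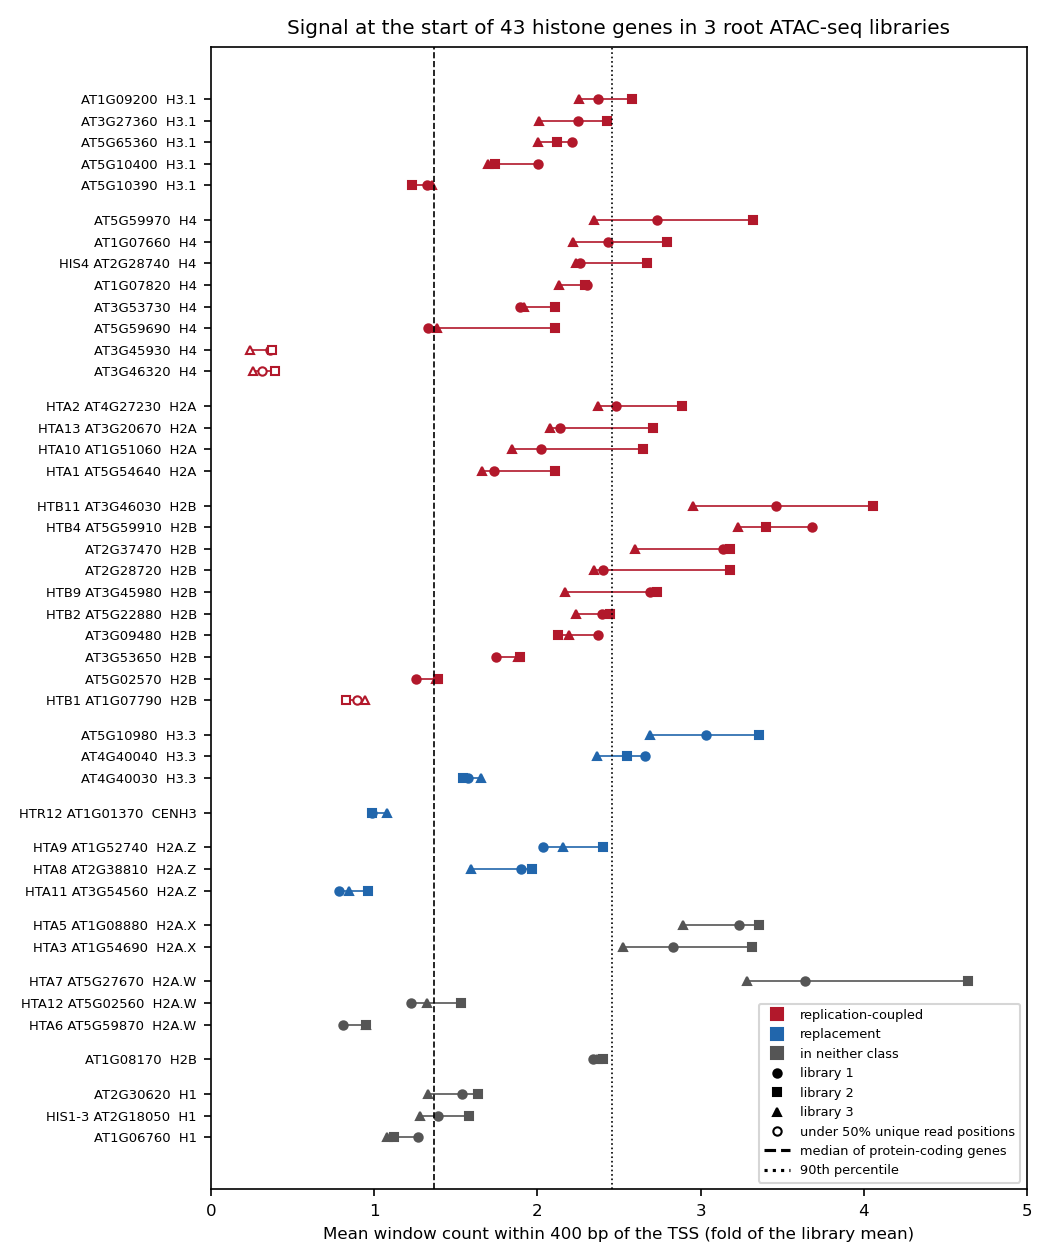
Signal at the start of each of the 43 histone genes, as fold of the library mean within 400 bp of the TSS (horizontal axis), with 1 symbol per library and a line from the lowest to the highest. Genes are grouped by family and coloured by class, open symbols mark the 3 genes with under 50% unique read positions, and the vertical lines mark the median (1.37) and the 90th percentile (2.46) of protein-coding genes. Most genes lie to the right of the median line, with HTA7 farthest (3.85) and 2 H4 genes near 0.32.

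The 3 values of a gene usually lay close together. The ratio of the highest to the lowest library had a median of 1.21 over the histone genes and 1.25 over all protein-coding genes. Library 2 gave the highest value for 31 of the 43 histone genes (55.8% of all genes) and library 3, the most deeply sequenced, the lowest for 29 (40.9% of all genes). The widest ratios were 1.59 for AT5G59690 and 1.57 for AT3G45930, both H4 genes.

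Accessible sites, the peaks that the authors called in each library, were frequent at these genes. From 1000 bp upstream of the TSS to the gene end, 39 of 43 histone genes (90.7%) had a site in all 3 libraries, against 52.3% of all 27441 protein-coding genes. None of the 43 lacked a site in all of the libraries, against 27.1% of all genes. This was so although histone genes are short, with a median length of 955 bp against 2078 bp, so that the searched region was shorter. Within 400 bp of the TSS on either side, 36 (83.7%) had a site in all 3 libraries, against 39.5% of all genes, and in the 400 bp upstream 31 (72.1%), against 33.6%.

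The 4 genes without a site in every library were AT5G10390 of H3.1, HTA12 and HTA6 of H2A.W, and HTA11 of H2A.Z. AT5G10390, HTA12 and HTA6 had sites in libraries 2 and 3, and HTA11 in library 2. Library 1 had the fewest sites over the genome, 26404, compared with 36033 in library 2 and 34828 in library 3. In libraries 1, 2 and 3, 39, 43 and 42 of the 43 histone genes had a site. Of all 27441 protein-coding genes, 15209, 18859 and 17695 had one. By class, 26 of 27 replication-coupled genes, 6 of 7 replacement genes and 7 of 9 genes of neither class had a site in all libraries.

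Replication-coupled and replacement histone genes were then compared, the question being whether genes made for S phase differ in accessibility from genes used throughout the cell cycle. Replication-coupled genes had a median signal of 2.25, 2.42 and 2.08 times the library mean in libraries 1, 2 and 3, and replacement genes 1.90, 1.97 and 1.66 times. At least 2 times the library mean in every library was reached by 16 of 27 replication-coupled genes and by 3 of 7 replacement genes. On the scale log2(fold + 0.1), the class means were 0.99 ± 0.11 for replication-coupled genes and 0.86 ± 0.060 for replacement genes (SD, n = 3 libraries). The difference was 0.14, 0.18 and 0.06 in libraries 1, 2 and 3, with a mean of 0.13 ± 0.058 (SD), positive in 3 of 3 libraries. By an exact two-sided sign-flip test over the 3 libraries p was 0.25, the smallest value that 3 libraries can give, and 0.25 after Benjamini-Hochberg adjustment over the 3 comparisons made, so no class difference could pass a threshold of 0.05 here.

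The genes within each class spread much more than the classes differed. Replication-coupled genes ranged from 0.320 to 3.49 and replacement genes from 0.864 to 3.03 in fold of the library mean, with an SD over genes of 0.76 and 0.63 on the log2 scale. The difference changed with the choice of genes and region: it was 0.36 without the 3 genes with under 50% unique read positions, all replication-coupled, but -0.00304 without the H2B genes. Over the longer region from 1000 bp upstream to 400 bp downstream it was -0.0456.

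**Figure D2:**
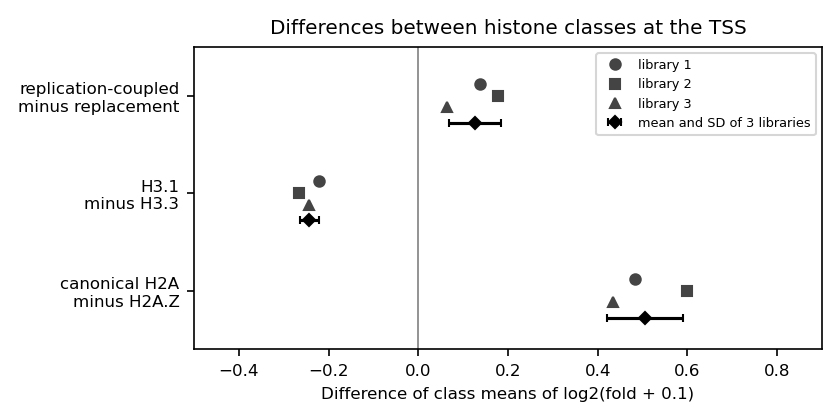
Difference between class means of log2(fold + 0.1) within 400 bp of the TSS (horizontal axis) for the 3 pairs of histone classes, with 1 symbol per library and a diamond with a bar for the mean and SD of the 3 libraries. All libraries lie on the same side of 0 in each pair: 0.13 for replication-coupled minus replacement, -0.24 for H3.1 minus H3.3 and 0.51 for canonical H2A minus H2A.Z.

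Within H3, the replication-coupled class had the lower mean. The H3.1 minus H3.3 difference was -0.22, -0.26 and -0.24 in libraries 1, 2 and 3, with a mean of -0.24 ± 0.022 (SD, exact sign-flip p = 0.25 with n = 3, the smallest possible). The class means on the log2 scale were 1.02 for H3.1 and 1.26 for H3.3. Canonical H2A lay above H2A.Z by 0.48, 0.60 and 0.43 in libraries 1, 2 and 3, with a mean of 0.51 ± 0.085 (SD, exact sign-flip p = 0.25 with n = 3), and class means of 1.2 for canonical H2A and 0.69 for H2A.Z on the log2 scale. In both pairs the genes of the 2 classes overlapped in signal. The H3.1 minus H3.3 difference depended on the region: it was -0.0484 ± 0.126 (SD, exact sign-flip p = 0.75 with n = 3) in the 400 bp upstream, -0.494 ± 0.234 in the 400 bp downstream, a region chosen after seeing the data, and -0.15 in unique windows. Canonical H2A minus H2A.Z was 0.18 from 1000 bp upstream to 400 bp downstream.

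Averaged profiles around the TSS were then drawn for each class. The profile of the replication-coupled genes was highest at -75 bp from the TSS in each of the 3 libraries, at 3.17, 3.62 and 2.63 times the library mean. The profile of the replacement genes was highest 25 bp downstream in library 1 and at the TSS in libraries 2 and 3, at 2.67, 3.16 and 2.53 times. All protein-coding genes together peaked at the TSS in libraries 1 and 3 and at -25 bp in library 2, at 1.71, 2.02 and 1.61 times. Averaged over 7 genes, the replacement profile rests on few loci, and the shift of the maximum was not tested.

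**Figure D3:**
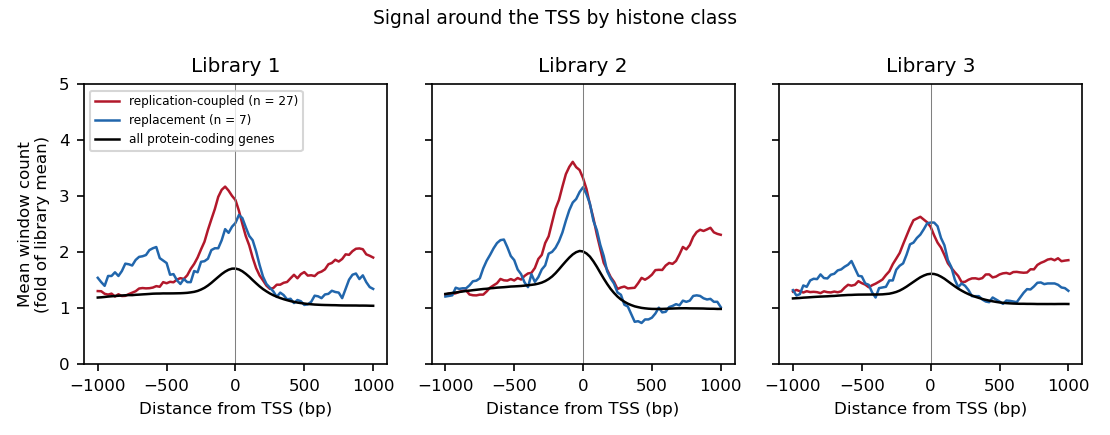
Mean signal around the TSS in each library, as fold of the library mean (vertical axis) against distance from the TSS in bp (horizontal axis, upstream to the left), for replication-coupled genes (red, n = 27), replacement genes (blue, n = 7) and all protein-coding genes (black). The red line peaks at -75 bp in every library, the blue line at the TSS or just after it, and the red line climbs again toward 1000 bp downstream, beyond the end of many of these short genes.

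H3.1, the replication-coupled H3, had 4 genes with similar signal and 1 with less. AT1G09200 was at 2.37, 2.58 and 2.26 times the library mean in libraries 1, 2 and 3 (2.40 ± 0.163, SD, n = 3), and its 2 octamers lie in the stretch shown above. AT3G27360 was at 2.25, 2.42 and 2.01 (2.23 ± 0.208) and AT5G65360 at 2.21, 2.12 and 2.01 (2.11 ± 0.103). The tandem genes AT5G10400 and AT5G10390, which lie on chromosome 5 on the same strand with the TSS of AT5G10400 at -1363 bp from that of AT5G10390, differed from each other. AT5G10400 was at 2.00, 1.74 and 1.70 (1.81 ± 0.165), and AT5G10390 was at 1.32, 1.23 and 1.35 (1.30 ± 0.0637), below its tandem neighbour in every library. The upstream side was higher than the downstream side in all 5 H3.1 genes by their means, and in every library for 4 of them. Of all 27441 protein-coding genes, 14431 and 10226 were so.

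H3.3, the H3 of transcribed chromatin, spanned a wider range with 3 genes. AT5G10980 was highest at 3.03, 3.36 and 2.69 times the library mean (3.03 ± 0.336), above 96.7% of protein-coding genes, and its promoter is the one above with 2 hexamers. AT4G40040 was at 2.66, 2.55 and 2.36 (2.52 ± 0.149). Its neighbour AT4G40030, which starts just downstream of the end of AT4G40040 on the same strand of chromosome 4, was at 1.58, 1.55 and 1.66 (1.59 ± 0.0564). One site of library 2 (chr4:18557533-18557648) fell in the searched regions of both of these neighbours, inside AT4G40040 and upstream of AT4G40030, and no other site was counted for more than 1 histone gene.

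HTR12, the CENH3 gene, which encodes the H3 of centromeric nucleosomes, had a narrow rise at its start. The signal at -25 bp from the TSS was 1.93, 1.84 and 2.30 times the library mean in libraries 1, 2 and 3. Within 400 bp of the TSS on either side it was at 0.988, 0.988 and 1.08 times the library mean (1.02 ± 0.0529), below the median protein-coding gene, and had a site within 400 bp of the TSS in library 3 alone. Its strongest site lay 2836 and 2851 bp downstream of the TSS in libraries 2 and 3, near the end of this gene of 2991 bp, and at 2380 bp in library 1.

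The 3 H2A.Z genes differed in signal. HTA9 was at 2.03, 2.40 and 2.16 times the library mean (2.20 ± 0.186), with its strongest site 63 to 65 bp downstream of the TSS in every library. HTA8 was at 1.90, 1.97 and 1.59 (1.82 ± 0.201), and its strongest sites had summits between -668 and -547 bp from the TSS, toward the divergent gene AT2G38820, whose TSS is at -887 bp. HTA11 was lowest at 0.786, 0.961 and 0.844 (0.864 ± 0.089), below the 25th percentile of protein-coding genes, with all of its read positions unique.

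Among the other H2A genes the spread was widest within H2A.W. HTA7 of H2A.W had the highest signal of all 43 genes, with 3.64, 4.64 and 3.28 times the library mean in libraries 1, 2 and 3 (3.85 ± 0.705), above 99.5% of protein-coding genes. HTA6, another H2A.W gene, was at 0.807, 0.949 and 0.950 (0.902 ± 0.0821), and HTA12 averaged 1.36. The H2A.W genes thus included the highest histone gene and one near the 25th percentile, with no overlap between HTA7 and HTA6 in any library. Both H2A.X genes were high: HTA5 at 3.23, 3.36 and 2.89 (3.16 ± 0.242) and HTA3 at 2.83, 3.32 and 2.53 (2.89 ± 0.398).

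The 4 canonical H2A genes lay close together. HTA2 was highest at 2.48, 2.88 and 2.37 times the library mean (2.58 ± 0.27) and HTA1, also known as RAT5 and needed for Agrobacterium transformation of roots, was lowest at 1.74, 2.11 and 1.66 (1.83 ± 0.241). HTA13 and HTA10 averaged 2.31 and 2.17. In each of these 4 genes library 2 gave the highest value.

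H2B was the largest family and held the second highest gene. HTB11 was at 3.46, 4.06 and 2.95 times the library mean (3.49 ± 0.554), and HTB4 averaged 3.44 ± 0.228. Of the 10 replication-coupled H2B genes, 7 had at least 2 times the library mean in every library and 10 had a site within 400 bp of the TSS in all 3 libraries. HTB1 was lowest at 0.897, 0.825 and 0.944 (0.888 ± 0.0598), and the other members ranged from 1.34 (AT5G02570) to 2.97 (AT2G37470). AT5G02570 overlaps HTA12 on the opposite strand, but no site was counted for both genes. AT1G08170, the H2B gene with the long protein, was at 2.34, 2.40 and 2.37 (2.37 ± 0.0318), the closest agreement between libraries of any histone gene.

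The H1 genes had a low averaged profile 300 bp upstream of their starts. Even so, 2 of the 3 had a site in the 400 bp upstream in all 3 libraries, against 33.6% of all protein-coding genes. AT2G30620 was at 1.54, 1.64 and 1.33 times the library mean (1.5 ± 0.158), HIS1-3, the H1 gene known to respond to drought, at 1.39, 1.58 and 1.28 (1.42 ± 0.15), and AT1G06760 at 1.27, 1.12 and 1.08 (1.16 ± 0.102). None of the 3 reached 2 times the library mean in any library, although all had a site within 400 bp of the TSS in all 3 libraries. Their averaged profile was low 300 bp upstream of the TSS, at 0.69, 0.61 and 0.64 times in libraries 1, 2 and 3, and higher 300 bp downstream, at 1.67, 1.72 and 1.58 times. All protein-coding genes showed the opposite slope, at 1.34 upstream and 1.18 downstream over the 3 libraries. The slope was seen in AT2G30620, with a mean of 0.87 in the upstream 400 bp and 2.13 in the downstream 400 bp, and in HIS1-3, with 1.10 and 1.74, whereas AT1G06760 had 1.21 and 1.10.

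For the histone genes together, log2 of the upstream over the downstream signal (both + 0.1) had a median of 0.19, 0.47 and 0.08 in libraries 1, 2 and 3, against 0.00, 0.17 and -0.03 for all protein-coding genes. The upstream side was higher in 26 of 43 histone genes, against 14431 of all 27441 protein-coding genes. It was higher in every library for 22 of the 43, against 10226 of the 27441. By the median position over the 3 libraries, the strongest site of a gene had its summit in the 400 bp upstream of the TSS for 20 of the 39 genes with a site in all libraries, and in the 400 bp downstream for 10, with a median of -22 bp over the genes. For 21 of the 39 the summits in the 3 libraries lay within 100 bp of each other. The fold enrichment of the strongest site over the MACS2 background, as a geometric mean of the libraries, ranged from 2.03 to 5.15.

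Most H4 genes were open at their ends. By the median position over the 3 libraries, the strongest site had its summit more than 400 bp downstream of the TSS for 8 of the 39 genes, and 5 of these 8 were H4 genes. The other 3 were HTR12, HTA10 and HIS1-3. By the same median position, the summit of all 8 lay within 200 bp of the annotated gene end. In single libraries there were exceptions: the strongest site of HTR12 was at 2380 bp in library 1, inside the gene, that of AT3G53730 at 399 bp in library 2, and that of HIS4 at -77 bp in library 3. Sites were searched only up to the gene end. In a short gene, such as AT3G46320 with 644 bp, a site more than 400 bp downstream therefore lies near the end. The share of all protein-coding genes with such a strongest site was not computed. The signal within 200 bp of the gene end on either side, a region chosen after these sites were seen, had a median of 2.89, 3.19 and 2.51 times the library mean over the 8 H4 genes in libraries 1, 2 and 3. All protein-coding genes had a median of 0.99, 1.07 and 1.04 times at their ends, and all 43 histone genes 1.41, 1.61 and 1.56 times. Within 400 bp on either side, the median over the 8 H4 genes was 2.39 times the library mean at the end and 2.11 at the start. With ends averaged over 200 bp and starts over 400 bp on either side, the end was higher in 33.5% of all protein-coding genes. On these unlike widths it was higher in 15 of the 43 histone genes and in 6 of the 8 H4 genes (75%). In 4 of these 6 the start had under 80% unique read positions, whose part in this comparison was not tested: AT3G45930 and AT3G46320 (11.2% and 13.1%), AT5G59970 (67.2%) and AT5G59690 (78.9%). In unique windows alone the start of AT5G59970 was at 4.21 and that of AT5G59690 at 2.06 times the library mean, and the pair on chromosome 3 had too few such windows for a value.

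The highest gene end was that of AT5G59970, at 4.92, 5.97 and 3.83 times the library mean in libraries 1, 2 and 3 (4.91 ± 1.07, SD, n = 3), above 99.97% of protein-coding gene ends. Its site there had a summit 732, 733 and 730 bp downstream of the TSS in libraries 1, 2 and 3, in a gene of 899 bp. AT3G46320 had 3.63, 4.25 and 2.81 times at its end (3.57 ± 0.724) and AT3G45930 had 3.13, 3.97 and 2.64 times (3.25 ± 0.669). AT3G53730, HIS4 and AT5G59690 averaged 2.89, 2.84 and 2.40, and the remaining H4 genes, AT1G07660 and AT1G07820, averaged 1.43 and 1.21. Thus 6 of 8 H4 genes had an end above the 90th percentile of protein-coding gene ends.

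Outside H4, 8 of 35 histone genes had an end above that percentile, among them AT2G37470 of H2B at 3.75 ± 0.343, HTA10 at 3.22 ± 0.817 and HTA7 at 3.05 ± 0.802. In 6 of these 8 the TSS of another gene lay within 400 bp of the gene end, for example 34 bp away at HTB11 and 64 bp away at HTA10, and the part of such neighbours in the signal was not tested. No H4 gene end had the TSS of another gene within 400 bp; the nearest, 423 bp from the end of AT5G59970, was that of AT5G59960. The other 2 of the 8 were HTR12, at 2.37 ± 0.287, and HIS1-3, at 2.41 ± 0.307, whose end is 4575 bp from the next TSS.

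**Figure D4:**
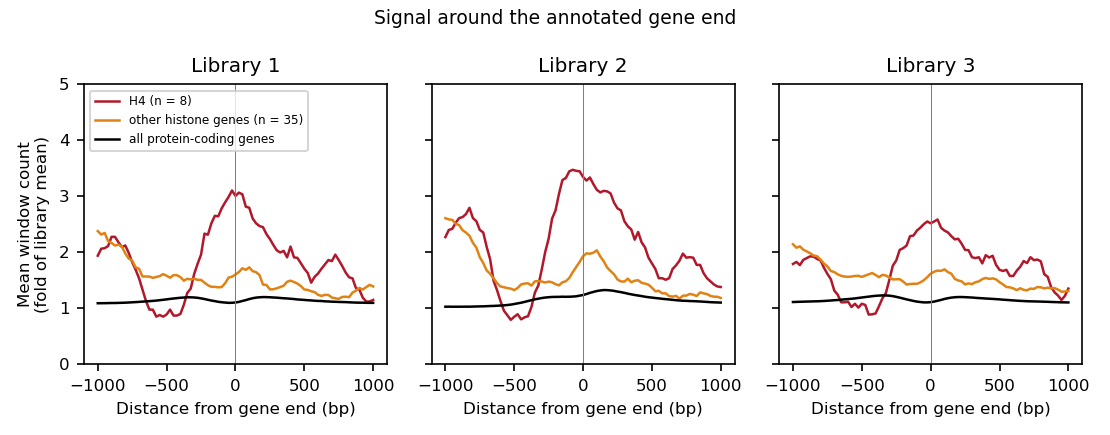
Mean signal around the annotated gene end in each library, as fold of the library mean (vertical axis) against distance from the gene end in bp (horizontal axis, into the gene to the left), for H4 genes (red, n = 8), the other histone genes (orange, n = 35) and all protein-coding genes (black). The red line has its maximum at the gene end, 3.03 over the 3 libraries at -25 bp, where both other lines are lower.

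The 2 lowest signals fell on genes with near-identical copies elsewhere in the genome. The authors kept only reads with a sole alignment, so the share of 61-base read positions that are unique with up to 2 mismatches was computed for each region. It was 100% for 28 of 43 histone genes (65.1%), against 85.7% of all protein-coding genes, and under 95% for 7. The H4 genes AT3G45930 and AT3G46320, with 11.2% and 13.1% unique positions, had the lowest signal of all histone genes. AT3G45930 was at 0.359, 0.372 and 0.237 times the library mean (0.323 ± 0.0747) and AT3G46320 at 0.311, 0.393 and 0.255 (0.320 ± 0.0693), so 3.09% and 3.03% of protein-coding genes had a signal at or below theirs. Over 807 aligned bases the start of AT3G45930 is 96.4% identical to that of AT3G46320 on the same chromosome. Their strongest sites lay 496 to 675 bp downstream of the TSS, with a fold enrichment of 5.26, 6.52 and 3.99 in libraries 1, 2 and 3 at AT3G45930, the strongest site of any histone gene by the geometric mean.

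HTB1 combined both situations within 1 gene. In the 400 bp upstream of its TSS, none of the read positions was unique and the signal was 0.164, 0.133 and 0.105 times the library mean, whereas in the 400 bp downstream all were unique and the signal was 1.63, 1.52 and 1.78 times. The first 437 bases of the region are 99.8% identical to a stretch of the same chromosome (chr1:2409407-2409843). A site with its summit 34 to 43 bp downstream of the TSS was called there in all 3 libraries. For HTB1 the value of 0.888 therefore averages a side where reads could be placed and a side where they could not.

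AT5G59690, the gene with the widest ratio between libraries, was at 1.33, 2.11 and 1.38 times the library mean (1.61 ± 0.436), and 78.9% of its positions were unique. AT5G59970, the highest H4 gene at its start, was at 2.73, 3.32 and 2.34 (2.8 ± 0.492) with 67.2% unique positions. In the 14 histone genes with at least 4 windows of each kind, windows touched by repeated read positions were lower than windows with unique positions only in 14 of 14, with a median of 1.44 times the library mean against 2.55 times. In 12 of the 14 repeated positions lay downstream of the TSS, so position and uniqueness cannot be told apart in this contrast. Restricted to unique windows, which 41 genes had, the median signal was 2.31. The replication-coupled minus replacement difference was then 0.46, positive in 3 of 3 libraries. Every replacement gene kept all of its windows, so of these classes the restriction changed only the replication-coupled one. AT3G45930 and AT3G46320, the lowest genes of that class, dropped out, so this difference does not cover the same genes and windows as the main one.

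**Figure D5:**
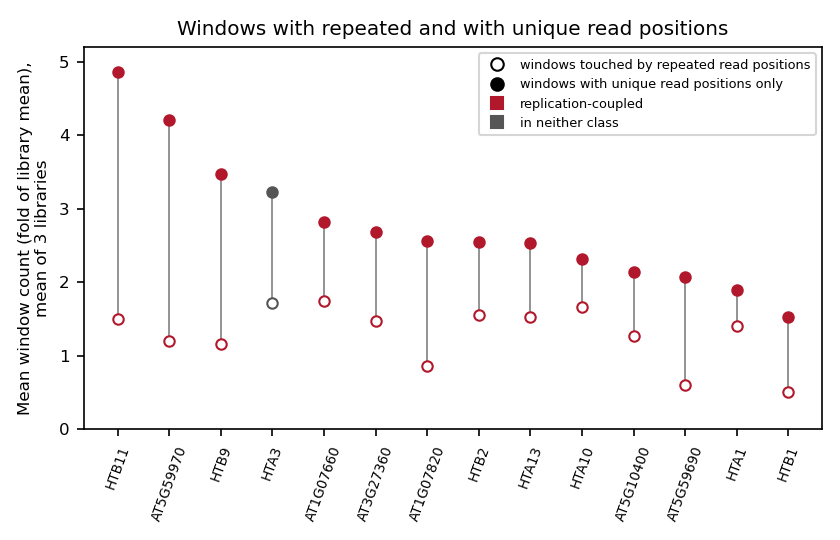
Signal in windows touched by repeated read positions (open circles) and in windows with unique read positions only (filled circles) within 400 bp of the TSS, as fold of the library mean averaged over the 3 libraries (vertical axis), for the 14 histone genes with at least 4 windows of each kind. Red marks replication-coupled genes and grey the H2A.X gene HTA3. The open circle is the lower one in all 14 genes, and the distance is longest for HTB11.

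Neighbouring genes were close for many members. A divergent gene, with its TSS within 1000 bp upstream on the opposite strand, was present for 15 of 43 histone genes (34.9%), against 18.8% of all protein-coding genes. The 15 had a median signal of 2.31 and the other 28 of 1.90. The part of the neighbour in the signal of a shared promoter was not tested. For 9 histone genes the annotation overlapped another gene. The median GC content of the 300-base promoter was 35.7% for histone genes and 32.0% for all protein-coding genes.

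Genes that supply or deposit histones had lower median signals at their starts than the 2.20 of the histone genes, a difference that was not tested. From 1000 bp upstream to the gene end, 52.3% of all protein-coding genes had a site in all 3 libraries, the share to set beside the counts below. Of 18 genes for histone chaperones, 13 had such a site, and their median signal was 1.52. HIRA, the H3.3 chaperone, was highest of them at 3.41 ± 0.408, and SPT16, a subunit of the FACT chaperone, was at 2.42 ± 0.381. The CAF-1 subunits FAS1 and FAS2, which load H3.1, were at 1.61 ± 0.16 and 1.60 ± 0.174. Of 7 genes for histone remodellers, among them PIE1 and ARP6 of the SWR1 complex, 5 had a site in all libraries, with a median of 1.26. Of 5 E2F and DP genes, 3 did, with a median of 1.31, and the E2F gene annotated as ATE2F2 was highest at 3.19 ± 0.42. Of 6 further H3 and H2A genes of uncertain class, among them MGH3, an H3 of the male germline, 4 did, with a median of 1.48.

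As a check of the tissue, genes known to act in roots and genes known to act in shoots and flowers were read in the same way. Of 8 root genes, 3 had a site in all libraries (SCR, SHR and GL2), a lower share than the 52.3% of all protein-coding genes, and the median signal of the 8 was 1.40, against 1.37 for all genes. Of 5 shoot and flower genes, none did, with a median of 0.786, and AP1 was highest at 1.35 ± 0.049. Within 400 bp of the TSS, 1 root gene (GL2) and 2 shoot and flower genes (AP1 and WUS) had a site in any library, GL2 in 3, AP1 in 2 and WUS in 1.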

How the data were processed

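ATAC-seq libraries of root nuclei were analysed from the deposited files, with 1 group of 3 libraries. The authors aligned 61-base single-end reads to TAIR10 with bowtie, keeping reads with a sole location, removed PCR duplicates with SAMtools and called peaks per library with MACS2 (tool versions are not given in the sources used here). They deposited raw read counts over windows of 100 bp starting every 25 bp, a read being counted in about 6 windows. Read totals were therefore estimated from these counts as the sum divided by 6.27, 6.34 and 6.28 windows per read in libraries 1, 2 and 3. The deposited peak lists give a score, a fold enrichment (a ratio), and the −log10 of p and q for each site. The score and the p were not used. No source says if read positions behind the counts were moved to the cut site of Tn5.

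Genes came from RefSeq TAIR10.1, whose chromosomes 1, 3, 4 and 5 end where the windows end, while the last window of chromosome 2 ends at 19698175 of 19698289. Signal was the mean count of windows centred within 400 bp of the TSS over the library mean. Site overlap was from 1 bp. Class means of log2(fold + 0.1) were compared within libraries by an exact sign-flip test over 8 sign patterns. Uniqueness was computed with bwa 0.7.19 from every 61-base position with up to 2 mismatches, and copies were found with blastn 2.17.0. Other steps used Python 3.11.15, numpy 2.4.6 and pandas 2.3.3. The computation was tested on simulated data. P-values measure only the spread between libraries. No measured value entered the choice of members, but the members, lists and tests were chosen with earlier results of these data known. Values per library are given for all H3.1, H3.3, CENH3, H2A.Z and H1 genes, the highest and lowest gene of the other families, and the 2 genes with the largest ratio between libraries. Other named genes were chosen after their values were seen.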

Additional observations from a re-analysis of the deposited data

How the results depend on the processing

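No paired analysis was possible because all libraries belong to 1 group. Of the alternatives tried, most kept the direction of each result. The replication-coupled minus replacement difference (0.13) turned to -0.0456 from 1000 bp upstream to 400 bp downstream and to -0.00304 without H2B, was 0.01 without CENH3, 0.00319 with H2A.X and H2A.W as replacement and 0.46 in unique windows, and 0.36 without genes under 50% unique positions. Leaving out each library gave 0.10 to 0.16 for it, -0.25 to -0.23 for H3.1 minus H3.3 and 0.46 to 0.54 for canonical H2A minus H2A.Z. H3.1 minus H3.3 was -0.0484 from 400 bp upstream to the TSS, -0.494 from the TSS to 400 bp downstream and -0.15 in unique windows, and canonical H2A minus H2A.Z was 0.18 from 1000 bp upstream to 400 bp downstream. The median histone gene signal (2.20) was 1.86 from 1000 bp upstream to 400 bp downstream and 1.61 when scaled to the median protein-coding gene, which has 1 by construction. Leaving out each library gave 2.11 to 2.25. The 39 genes with a site in all libraries were 30 (69.8%, against 32.7% of all genes) at a −log10 q of at least 5, 38 with 26404 sites in each library, and 39 to 42 without each library. The H4 gene end signal (2.87) was 2.39 within 400 bp and 2.70 to 3.04 without each library. The region downstream of the TSS, the gene-end regions and the removal of genes under 50% unique positions were chosen after seeing the data. No setting for members with near starts changed a value, since no starts were within 800 bp of each other. With 3 libraries no class comparison could reach p under 0.25. The starts of the H4 pair on chromosome 3 had 11.2% and 13.1% unique read positions and an estimated 21 to 31 reads per library, which limits their values. In unique windows this pair dropped out, while the replacement genes kept all of their windows.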
